A study of Mus musculus with 6 samples.

Results

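The elastic fibre genes described here are 10 rows of a deposited gene count table, picked by symbol from the 23478 genes it lists: Eln, Fbn1, Fbn2, Mfap4, Fbln1, Fbln2, Fbln5, Efemp2, Emilin1 and Lox. All 10 had enough counts to be tested, among 19375 genes tested. RNA was sequenced from sorted cells of the mouse embryo's trachea (E13.5), with 3 libraries of muscle and 3 of epithelium. The embryos of both groups were Bmp4 f/f and carried the gamma SMA eGFP reporter, and the labels call every library a control and name no Cre driver. The labels name the reporter and an Epcam antibody for the sort but give no gates, so muscle is taken here to be the cells in which the gamma smooth muscle actin reporter was on, and epithelium the cells with Epcam on their surface. Other mesenchyme of the trachea, such as fibroblasts and cartilage precursors, is not among the libraries used here as a population of its own. The labels do not say whether replicates came from separate embryos or pools, so p-values measure the spread between these libraries, which may be technical. The study asks about Wnt signalling, ion channels and the making of muscle and cartilage in this organ.

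Elastic fibres let the airway wall stretch and recoil. Tropoelastin, the soluble product of Eln, is laid down on a scaffold of fibrillin microfibrils, guided there by fibulins, and is then cross-linked into elastin by lysyl oxidase. In tubular organs such as arteries and airways, smooth muscle cells and fibroblasts are the cells known for making these proteins, while epithelia are known mainly for basement membrane.

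Promoters from RefSeq on GRCm38.p6, 250 bases before to 50 after an annotated start, were matched by symbol for 6 of the 10 genes, Fbn1, Fbln1, Fbln2, Fbln5, Efemp2 and Emilin1, with 10 starts in all. The sequences given are those of 3 genes that were higher in muscle and, for contrast, Fbln1, which did not pass the test. Each is written 5′ to 3′ on the gene's strand, with CG dinucleotides in capitals. The windows are chr5:30913536-30913835 (plus strand) for Emilin1, chr6:91212514-91212813 (plus) for Fbln2, chr2:125506389-125506688 (minus) for Fbn1 and chr15:85205699-85205998 (plus) for the more upstream of the starts of Fbln1.
Emilin1: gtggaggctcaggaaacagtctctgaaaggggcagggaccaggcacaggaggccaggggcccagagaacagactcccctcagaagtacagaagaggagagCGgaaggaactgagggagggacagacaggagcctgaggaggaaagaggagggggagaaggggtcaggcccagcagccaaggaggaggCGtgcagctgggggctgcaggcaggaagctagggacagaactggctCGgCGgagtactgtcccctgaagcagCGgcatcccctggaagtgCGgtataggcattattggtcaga
Fbln2: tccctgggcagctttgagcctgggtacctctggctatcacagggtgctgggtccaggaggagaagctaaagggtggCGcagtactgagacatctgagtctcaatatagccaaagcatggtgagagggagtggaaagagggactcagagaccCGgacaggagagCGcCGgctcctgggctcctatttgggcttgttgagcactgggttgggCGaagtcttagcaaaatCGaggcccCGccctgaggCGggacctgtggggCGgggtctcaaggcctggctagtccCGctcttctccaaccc
Fbn1: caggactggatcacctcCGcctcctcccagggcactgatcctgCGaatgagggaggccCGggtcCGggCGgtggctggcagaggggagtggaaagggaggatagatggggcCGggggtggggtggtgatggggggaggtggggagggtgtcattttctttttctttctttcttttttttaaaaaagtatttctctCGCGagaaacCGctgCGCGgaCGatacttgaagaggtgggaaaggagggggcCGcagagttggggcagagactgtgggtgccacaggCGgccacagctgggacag
Fbln1: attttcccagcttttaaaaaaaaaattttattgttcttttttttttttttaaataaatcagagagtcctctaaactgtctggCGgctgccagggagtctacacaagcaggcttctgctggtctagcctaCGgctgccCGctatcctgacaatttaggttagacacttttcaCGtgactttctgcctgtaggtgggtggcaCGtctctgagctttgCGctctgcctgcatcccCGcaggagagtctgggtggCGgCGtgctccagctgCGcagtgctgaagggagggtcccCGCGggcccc
The Emilin1 window holds 6 CG dinucleotides, that of Fbln2 10, that of Fbn1 14 and that of Fbln1 12, where the median over 32851 promoter windows is 7. GC content was 61.7% for Emilin1, 60.3% for Fbln2 and Fbn1 and 51.7% for Fbln1, against a median of 52.7%. The window of the other Fbln1 start, not written out here, had 64% GC and 24 CG dinucleotides, more than any of the windows shown. By GC content Fbln1 was thus below the other 3 genes shown at its upstream start and above them at the other. By CG dinucleotides the upstream start lay below Fbn1 alone. None of the 10 windows of the 6 genes held the letters TATAAA or a CArG box, the motif bound by serum response factor, on either strand. Of all windows, 13.6% held TATAAA and 1.63% a CArG box, which can itself contain TATAAA. That the letters are absent from these windows says nothing of the factors that bind them.

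Total counts ranged from 11847432 to 54848820 per library. Muscle libraries held 0.151% to 0.893% of the epithelial level of 12 epithelial markers, by the median marker. Epithelial libraries held 0.336% to 1.99% of the muscle level of 12 smooth muscle markers, all of which were higher in muscle. A pair of libraries stood apart. Muscle replicate 2 had the lowest level of all 12 smooth muscle markers among the muscle libraries, with a summed level of 4652 CPM against 18950 and 20620 (CPM are counts per 1000000 TMM-scaled counts). Among 4124 genes with an average log2 CPM not under 6, this library was the highest of the muscle group in 2.96%. The share in which it was the lowest was not counted. Epithelium replicate 2 had a summed level of 2287 CPM for 12 fibroblast and perichondrial markers, against 381 and 292 in the other epithelial libraries. Both carry an earlier number, read here as a date, in the file header than the other libraries, and both had more counts of olfactory and vomeronasal receptor genes (871 and 1790 CPM) than any other library (6.47 to 627). Receptor counts were thus also raised in epithelium replicate 3, the library with 627 CPM.

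Elastic fibre genes were higher in muscle almost as a group. Of the 10 genes, 9 passed the test with a higher level in muscle and none with a higher level in epithelium (edgeR quasi-likelihood test, adjusted p under 0.05 over all genes tested). Over all genes tested, 6.58% were called higher in muscle and 4.11% higher in epithelium. Among the 4124 well-expressed genes (an average log2 CPM not under 6), which include all 10, 13.7% were called higher in muscle. The median log2 fold change of muscle over epithelium was 2.88 for the 10 genes, -0.10 for all genes tested and 0.22 for the well-expressed genes. In the same 9 genes every muscle library lay above every epithelial library, which held for 16.4% of all genes tested and 26.8% of the well-expressed genes. The exception was Fbln1. Together the 10 genes took 0.484%, 1.19% and 0.736% of all counts in the muscle libraries, in order of replicate, and 0.0974%, 0.177% and 0.0899% in the epithelial ones. In bulk RNA, more cells that make a transcript and more transcript per cell cannot be told apart.

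**Figure D1:**
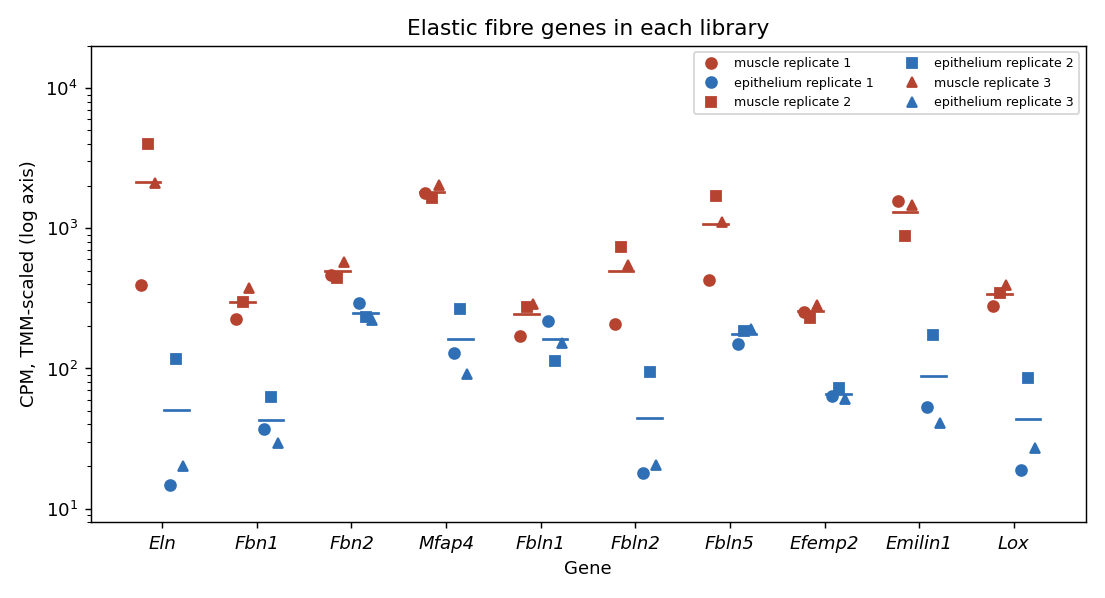
Level of each elastic fibre gene in each library, in TMM-scaled CPM on a log axis. Red symbols are muscle and blue symbols epithelium, the symbol shape gives the replicate number and the short lines are group means. Only Fbln1 has muscle and epithelial libraries that overlap, and Eln has the widest spread within muscle, from 393 to 3966 CPM.

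Eln encodes tropoelastin, the elastic core of the fibre. In order of replicate, as for all values that follow, it had 393, 3966 and 2107 CPM in muscle and 14.7, 116 and 20.2 CPM in epithelium. Muscle replicate 2 was high and replicate 1 low, epithelium replicate 2 was the highest of its group, and the groups did not overlap. The log2 fold change of 5.43 ± 1.09 (SE; edgeR adjusted p = 0.013), about 43-fold, was the largest of the 10 genes and also the least precise, with a 95% interval from 2.96 to 7.89. The call was lost without muscle replicate 3 (edgeR adjusted p = 0.052), epithelium replicate 1 (0.076) or epithelium replicate 3 (0.088). Without epithelium replicate 2 the log2 fold change was 6.96, and without muscle replicate 2 it was 4.66, both past the threshold (edgeR adjusted p = 0.0089 and 0.046).

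The fibrillins form the microfibril scaffold, Fbn1 through life and Fbn2 mainly in development. Fbn1 had 224, 297 and 375 CPM in muscle and 36.9, 62.4 and 29.6 CPM in epithelium, so that the groups were well apart. Its log2 fold change was 2.80 ± 0.35 (edgeR adjusted p = 0.0015). Fbn2 had 461, 443 and 577 CPM in muscle and 292, 231 and 220 CPM in epithelium. The groups did not overlap, but the distance was small (log2 fold change 0.99 ± 0.24, about 1.99-fold, edgeR adjusted p = 0.031). The call of Fbn2 held without muscle replicate 2 and was lost in each of the other 5 fits that left out a library (edgeR adjusted p from 0.061 to 0.22). The 95% intervals of the log2 fold changes, 2.00 to 3.60 for Fbn1 and 0.44 to 1.54 for Fbn2, did not meet, although the difference between these genes was not itself tested. Mfap4, whose product is a microfibril-associated protein that binds tropoelastin and fibrillin, had 1800, 1657 and 2033 CPM in muscle and 129, 265 and 90.8 CPM in epithelium. Its muscle libraries lay within 1.23-fold of each other, and its log2 fold change was 3.50 ± 0.42 (edgeR adjusted p = 0.0012).

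Fibulins join microfibrils to tropoelastin, and their genes covered a wide range of differences. Fbln5, whose product binds tropoelastin and lysyl oxidase-like enzymes and is needed for elastic fibre assembly, had 425, 1697 and 1111 CPM in muscle and 149, 186 and 190 CPM in epithelium. The muscle libraries differed by 3.99-fold and the epithelial ones by 1.28-fold, without overlap between groups (log2 fold change 2.62 ± 0.46, edgeR adjusted p = 0.0072). Fbln2, which encodes a matrix fibulin found along microfibrils and basement membranes, had 209, 741 and 544 CPM in muscle and 17.97, 94.5 and 20.6 CPM in epithelium. Its replicate 2 libraries were the highest of both groups, as with Eln. The log2 fold change was 3.49 ± 0.74 (edgeR adjusted p = 0.018), and 4.67 without epithelium replicate 2 (edgeR adjusted p = 0.0019). The call of Fbln2 was lost without muscle replicate 2 or 3 or epithelium replicate 1 or 3 (edgeR adjusted p up to 0.087), and when libraries were scaled by size only (0.059).

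Efemp2 encodes fibulin 4, which brings lysyl oxidase to tropoelastin. It had 254, 230 and 282 CPM in muscle and 63.4, 72.3 and 60.5 CPM in epithelium, with little spread within either group. Its log2 fold change was 1.97 ± 0.23 (edgeR adjusted p = 0.0011). Fbln1, whose product binds fibronectin and elastic fibres, had 171, 275 and 290 CPM in muscle and 219, 114 and 151 CPM in epithelium. Epithelium replicate 1 lay above muscle replicate 1, so the groups overlapped. Its log2 fold change, 0.60 ± 0.32, missed the threshold (edgeR adjusted p = 0.35), the 95% interval ran from -0.12 to 1.33, and it did not pass in any of 16 alternative fits. A higher level in muscle by up to 2.51-fold would thus lie within the interval.

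Emilin1 encodes a glycoprotein at the border of elastin and microfibrils. It had 1554, 888 and 1469 CPM in muscle and 52.8, 173 and 40.9 CPM in epithelium. Here muscle replicate 2 was the lowest of its group, the reverse of Eln. The log2 fold change was 3.87 ± 0.58 (edgeR adjusted p = 0.0034), about 15-fold, and 4.72 without epithelium replicate 2. Lox, which encodes lysyl oxidase, had 279, 345 and 394 CPM in muscle and 18.9, 85.1 and 27.3 CPM in epithelium. The muscle libraries were close to each other, and epithelium replicate 2 was more than 3 times the others of its group. The log2 fold change was 2.96 ± 0.54 (edgeR adjusted p = 0.0085), and 3.85 without epithelium replicate 2.

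**Figure D2:**
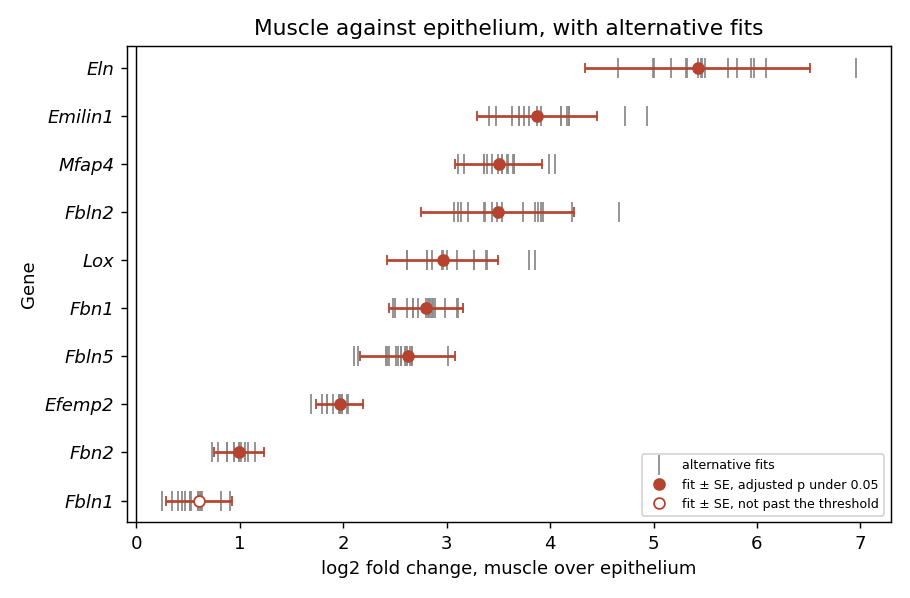
Log2 fold change of muscle over epithelium for each elastic fibre gene, with its SE as a bar. Filled circles passed the threshold, the open circle did not, and grey ticks are the 16 alternative fits. All values lie above 0, from 0.60 for Fbln1 to 5.43 for Eln.

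Of the 9 calls, 6 held in all 16 alternative fits: Fbn1, Fbln5, Efemp2, Emilin1, Lox and Mfap4. The libraries of the later header number alone, 2 per group, gave the same 9 calls, with log2 fold changes of 6.09 for Eln, 4.94 for Emilin1 and 3.79 for Lox. For the earlier number there is 1 library in each group and so no test.

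Levels of different genes were compared per length, as CPM per kilobase of merged exons in GENCODE M21. Merged exons take in all annotated transcripts of a gene and can be longer than the transcript made. The order and the overlaps below depend on these lengths, such as 8.098 kilobases for Eln and 1.922 for Mfap4. Other lengths were not tried. In muscle Mfap4 was far ahead, with 952 ± 98.7 CPM per kilobase (SD, n = 3), and its libraries all lay above those of the next gene. Eln (266 ± 221), Emilin1 (264 ± 73.5) and Fbln5 (156 ± 92.1) followed, with neighbours that overlapped between libraries. Fbln2 (78.2 ± 42.3), Lox (71.0 ± 12.2), Efemp2 (67.4 ± 6.87), Fbln1 (56.1 ± 14.8) and Fbn2 (37.3 ± 5.50) came next, and each overlapped its neighbour. Fbn1 was lowest at 24.6 ± 6.21 CPM per kilobase, with every muscle library below those of Fbn2. In epithelium the order was different. Mfap4 (84.0 ± 47.6) was again first, but Fbln1 (36.9 ± 12.2), Fbln5 (25.3 ± 3.31) and Fbn2 (18.8 ± 2.93) came next, while Eln (6.21 ± 7.03) stood above Fbn1 (3.54 ± 1.42) alone. All neighbours in the epithelial order overlapped between libraries.

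The epithelial level of each gene was also set against its muscle mean. Fbln1 in epithelium replicates 1 to 3 stood at 89.1%, 46.4% and 61.8% of the muscle mean and Fbn2 at 59.2%, 46.9% and 44.6%. Efemp2 stood at 24.8%, 28.3% and 23.7% and Fbln5 at 13.8%, 17.3% and 17.6%. The epithelial libraries of Fbn2, Fbln5 and Efemp2 lay within 1.33-fold of each other, while those of Fbln1 spread 1.92-fold with replicate 2 lowest. The median of the 12 smooth muscle markers stood at 0.336%, 1.99% and 0.700%, below every one of these values. The median of the 12 fibroblast and perichondrial markers, of which 7 were called higher in sorted muscle, stood at 5.49%, 26.2% and 5.10%. Fbln1, Fbn2 and Efemp2 were above that median in all 3 epithelial libraries. The median of 13 cartilage markers, of which 4 were called higher in muscle, stood at 20.4%, 72.5% and 50.1%. In epithelium replicate 2 it lay above all 10 elastic fibre genes, and in replicate 3 above all but Fbln1. That median mixes unlike genes. By group means the 4 called markers ran from 10.8% (Col9a1) to 28.6% (Col11a1), and Col2a1, not called, stood at 72.7%. Matn1 and Comp, at only 0.53 and 0.68 CPM in muscle, stood at 327% and 338%.

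The other 6 genes were highest in epithelium replicate 2. So were the medians of the smooth muscle, fibroblast and cartilage markers, so this order is not particular to fibroblast genes. Eln stood at 0.684%, 5.38% and 0.936% of its muscle mean, Fbln2 at 3.61%, 19.0% and 4.14%, and Emilin1 at 4.05%, 13.3% and 3.14%. Lox stood at 5.57%, 25.1% and 8.04%, Mfap4 at 7.03%, 14.5% and 4.96% and Fbn1 at 12.4%, 20.9% and 9.90%. With Efemp2, 7 of the 10 genes were highest in epithelium replicate 2 among the epithelial libraries, against 9.55% of well-expressed genes. Col3a1, a fibroblast collagen gene, had 745 CPM in that library against 117 and 91.3, and Col1a2, another, 502 against 87.5 and 56.6. Of the smooth muscle markers, Acta2 had 16.3 CPM there against 3.27 and 2.93, while Smtn was lowest there, at 50.8 against 80.5 and 80.4. The part of other mesenchymal cells, and of receptor background counts, in the epithelial level of these genes was not tested.

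**Figure D3:**
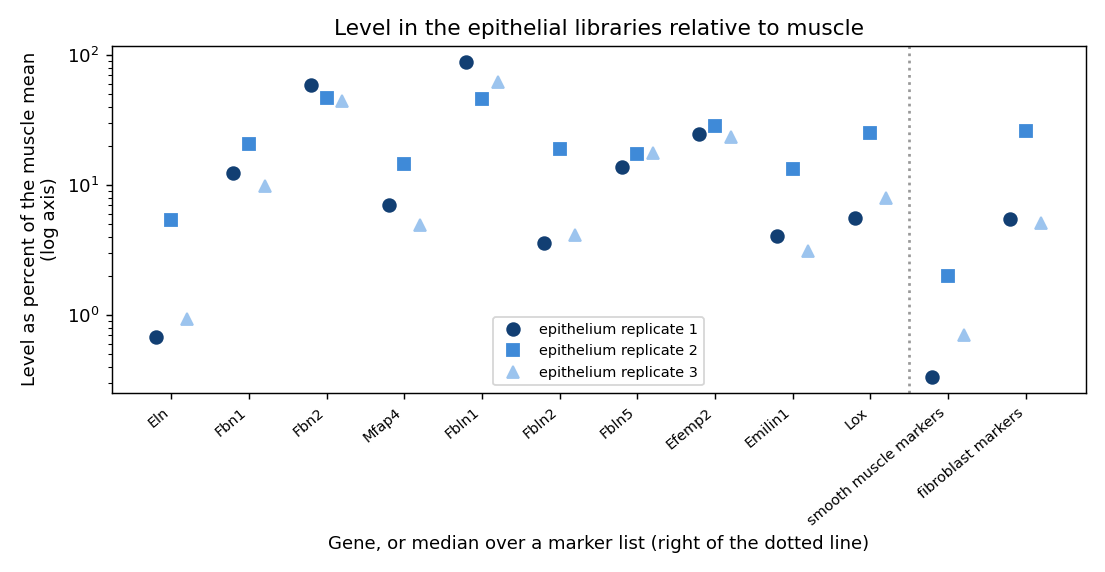
Level in each epithelial library as a percent of the muscle mean, on a log axis, for the 10 genes and, right of the dotted line, for the median smooth muscle and fibroblast marker. Fbln1 and Fbn2 lie between 44.6% and 89.1%, and Eln between 0.684% and 5.38%.

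Among the muscle libraries the genes did not vary together. Eln differed by 10.1-fold between the highest and lowest muscle library, Fbln5 by 3.99-fold and Fbln2 by 3.55-fold, and in all 3 genes replicate 2 was highest and replicate 1 lowest. That order held for 2.59% of the 4124 well-expressed genes, of which 7 (0.170%) had a larger ratio than Eln. The other 7 genes differed by 1.23-fold (Efemp2 and Mfap4) to 1.75-fold (Emilin1), near the median of 1.57-fold over the same genes. The ratio of Eln to Mfap4 counts, which no scaling of libraries alters, was 0.218, 2.39 and 1.04 in the muscle libraries and 0.115, 0.438 and 0.222 in the epithelial ones.

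The contractile genes went the other way. Acta2, which encodes alpha smooth muscle actin, had 6849, 1871 and 6946 CPM in muscle, so replicate 2 was lowest where Eln was highest. Actg2, the gamma smooth muscle actin gene behind the reporter, had 2438, 403 and 2786 CPM. Summed over the 12 fibroblast and perichondrial markers, the muscle libraries had 8359, 10170 and 11180 CPM, and over 13 cartilage markers 1107, 1794 and 1705 CPM. Of the 13 cartilage markers, 9 were highest in muscle replicate 2 and 1 was lowest there. Col9a2, a cartilage collagen gene, had 128, 295 and 203 CPM, in the same order as Eln. Sox9, another marker of that list, had 307, 395 and 673 CPM and so was highest in replicate 3. Markers of some other cell types were also highest in muscle replicate 2, at low summed levels. Immune markers had 3.27, 52.3 and 20.7 CPM (7 of 8 highest in replicate 2), mesothelial markers 2.05, 18.02 and 2.35 CPM (6 of 6) and neural and glial markers 35.5, 67.7 and 34.2 CPM (7 of 8). Epithelial markers had 14.4, 32.9 and 30.5 CPM in muscle (7 of 12 highest in replicate 2 and 1 lowest). Genes that respond to tissue dissociation went the other way, with 20040, 8589 and 23730 CPM and 9 of 10 lowest in replicate 2. Among the 4124 well-expressed genes, muscle replicate 2 was highest in 2.96%, replicate 1 lowest in 11.9% and replicate 3 highest in 48.4%. The share that was lowest in replicate 2 was not counted, so a low level there is not shown to be particular to the contractile or dissociation genes. Of the lists described below, replicate 2 was lowest for 7 of 10 integrin genes and highest for 1. It was lowest for 6 of 10 cross-linking and processing genes and highest for 3. The immune, mesothelial and neural and glial markers all lie outside that set. So do the cartilage markers Acan, Col11a2, Hapln1, Comp and Matn1, which were highest in replicate 2, and Sox6, which was not. No share was counted over genes at such low levels. Muscle replicate 2 had counts in 21863 genes, against 18158 and 18217 in replicates 1 and 3. The part of the cell mix, of dissociation and of receptor background counts in the spread of Eln was not tested. The earlier header number falls on muscle replicate 2 alone, so within muscle that number and the library cannot be told apart.

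**Figure D4:**
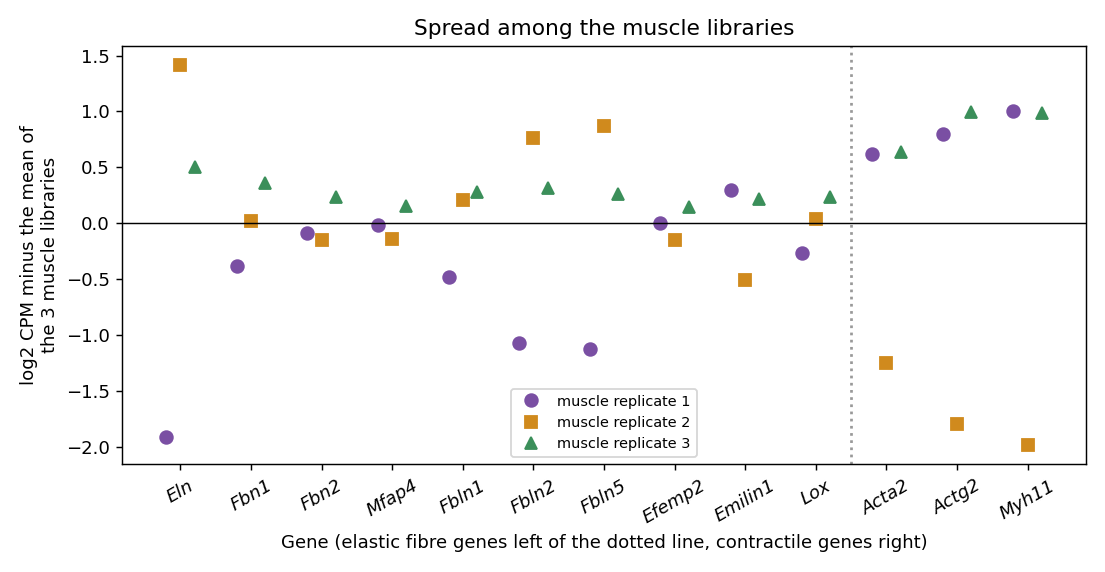
Log2 CPM of each muscle library minus the mean of the 3 muscle libraries, for the 10 elastic fibre genes and 3 contractile genes. Replicate 2 is highest for Eln, Fbln2 and Fbln5 and lowest for Acta2, Actg2 and Myh11.

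Genes that work with these proteins were described from 5 further lists. Of the 50 genes tested in them, 21 (42.0%) were higher in muscle and 1 was higher in epithelium, and the first count ran from 16 to 30 over the alternatives. Among related fibulins, EMILINs and microfibril proteins, 5 of 13 tested were higher in muscle, 1 was higher in epithelium and 7 did not pass, with a median log2 fold change of 1.64. Without epithelium replicate 2, or with limma-voom, 8 were higher in muscle. Emilin3, which encodes a relative of EMILIN-1, had 520, 106 and 937 CPM in muscle and 25.3, 37.5 and 14.5 CPM in epithelium (log2 fold change 4.34 ± 0.75, edgeR adjusted p = 0.0070). Its muscle replicate 2 was low, and its call was lost with the covariate for receptor background counts (edgeR adjusted p = 0.14), with the replicate block (0.073) and without epithelium replicate 1 (0.060). Efemp1, the gene of fibulin 3, had a log2 fold change of 2.31 ± 0.37 (edgeR adjusted p = 0.0042). Ltbp1, whose product tethers latent TGF-beta to microfibrils, had 1.98 ± 0.31 (edgeR adjusted p = 0.0042). The remaining pair, named after their values were seen, was Mfap2 (1.84 ± 0.24, edgeR adjusted p = 0.0018), the gene of a microfibril glycoprotein, and Ltbp3 (1.71 ± 0.31, 0.0078).

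Fbln7, a further fibulin gene, was the single gene of these lists that was higher in epithelium. It had 4.56, 12.9 and 5.84 CPM in muscle and 193, 104 and 186 CPM in epithelium (log2 fold change -4.38 ± 0.47, edgeR adjusted p = 0.00081). The call held in all 16 alternative fits. Among the fibulin genes described here, Fbln2, Fbln5, Efemp2 and Efemp1 were thus called higher in muscle and Fbln7 alone higher in epithelium. Fbln1 was called in neither direction.

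Of 10 cross-linking and processing genes, 6 were higher in muscle and 4 did not pass, with a median log2 fold change of 1.68. Loxl2 had 178, 171 and 295 CPM in muscle and 31.7, 25.9 and 17.7 CPM in epithelium (log2 fold change 3.10 ± 0.34, edgeR adjusted p = 0.00086). Loxl1, the lysyl oxidase-like enzyme that binds fibulin 5, had 69.5, 158 and 158 CPM in muscle and 19.0, 25.1 and 14.5 CPM in epithelium (2.72 ± 0.38, edgeR adjusted p = 0.0023). Bmp1, whose protease activates lysyl oxidase, had a log2 fold change of 2.35 ± 0.33 (edgeR adjusted p = 0.0025).

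Of 9 ADAMTS and ADAMTS-like genes of microfibril assembly, 2 were higher in muscle and 7 did not pass, with a median of 1.35. With limma-voom, or with the covariate for receptor background counts, 5 were higher in muscle. Adamtsl2, whose product binds fibrillin 1, had 32.8, 17.3 and 43.7 CPM in muscle and 2.62, 1.87 and 2.52 CPM in epithelium (log2 fold change 3.73 ± 0.42, edgeR adjusted p = 0.00093). Adamts17 had 2.04 ± 0.31 (edgeR adjusted p = 0.0037). Of 8 elastin-degrading proteases tested, 2 were higher in muscle, with a median of 0.75. These were Mmp2, the gene of gelatinase A (3.53 ± 0.50, edgeR adjusted p = 0.0026), and Ctsl, that of a lysosomal cathepsin (1.09 ± 0.24, 0.019). Ctsl lost its call without muscle replicate 3 or epithelium replicate 1 or 3 (edgeR adjusted p up to 0.12).

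Of 10 integrin genes whose products bind fibrillins, fibulins or related matrix, 6 were higher in muscle and 4 did not pass, with a median log2 fold change of 1.97. The count was 3 without epithelium replicate 3, 4 without muscle replicate 3 and 4 with the replicate block. Itga4 had the largest difference (4.14 ± 0.40, edgeR adjusted p = 0.00050). Itga8, an integrin of smooth muscle and mesenchyme, had 127, 106 and 120 CPM in muscle and 5.71, 17.2 and 9.39 CPM in epithelium (3.46 ± 0.40, edgeR adjusted p = 0.0011). Itga5, the fibronectin receptor gene, had 2.86 ± 0.47 (edgeR adjusted p = 0.0049).

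**Figure D5:**
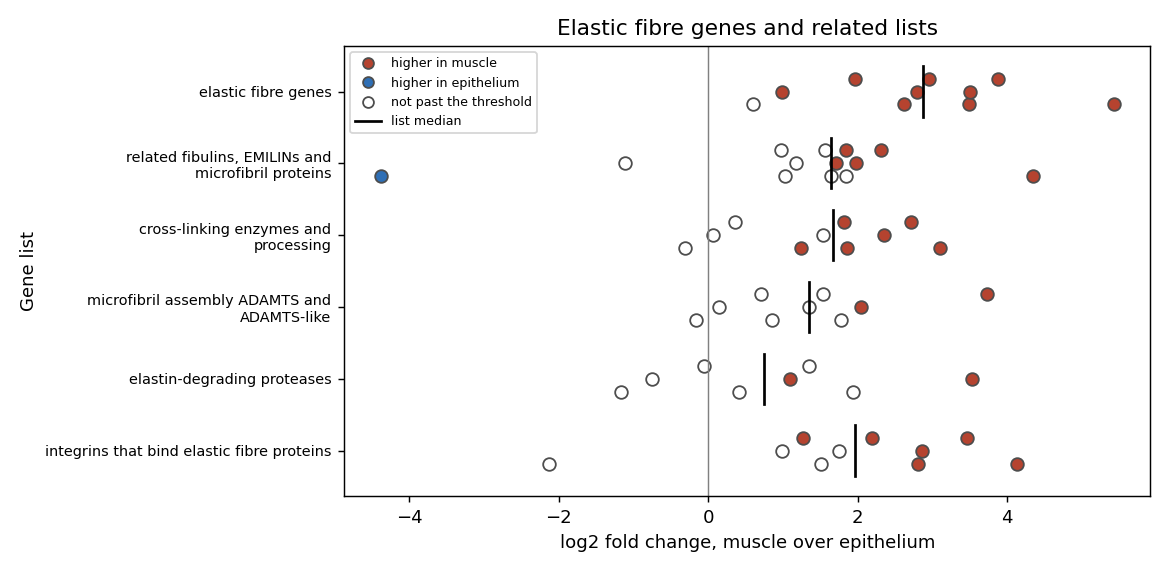
Log2 fold change of muscle over epithelium for the 10 elastic fibre genes and the tested genes of 5 related lists. Red circles were called higher in muscle, the blue circle (Fbln7) higher in epithelium, open circles did not pass, and black bars are list medians, 2.88 for the elastic fibre genes.

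The genes whose pattern over the 6 libraries was most like that of Eln were sought among 4113 other well-expressed genes, by the root mean square difference of centred log2 CPM. Bgn (0.77), Postn (0.84), Mgp (0.91), Ogn (1.01) and Spon1 (1.03) came closest, and among the elastic fibre genes Fbln2 (1.01) was nearest and Fbln1 (2.82) farthest. Bgn, Ogn, Postn and Mgp encode secreted matrix proteins. Since all 5 were picked on these same 6 libraries, their values are a description and no test of them is given. Bgn had 399, 807 and 669 CPM in muscle and 6.91, 85.4 and 12.4 CPM in epithelium. Postn had 49.3, 337 and 182 CPM in muscle and 1.71, 45.8 and 5.52 CPM in epithelium. Mgp had 1017, 1695 and 2022 CPM in muscle and 38.1, 199 and 34.9 CPM in epithelium. In this last gene, unlike Eln, muscle replicate 3 was the highest of its group.

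Some positions matter for the counts. The submitters' processing notes name mm10, the GRCm38 build that GENCODE M21 annotates. Mfap4 (chr11:61485431-61488900, plus strand) shares 89 exonic bases with Mapk7 on the opposite strand, and Efemp2 (chr19:5473954-5482517, plus) shares 173 with Mus81. Fbn1 (chr2:125300594-125507993, minus) shares 2442 exonic bases with the opposite-strand gene Gm9913, which is not in the count table. The library kit in standard use keeps no strand, so reads from these stretches cannot be told apart. Eln (chr5:134702593-134747323, minus) shares 267 exonic bases with the opposite-strand Gm30003. Fbn2 shares 129 with Gm26507 and Lox 30 with an antisense gene. These 3 partners are not in the count table either.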

How the data were processed

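RNA was extracted with Trizol, amplified with SMART-Seq v4 and made into libraries with Nextera XT, per the labels' protocols. The values are whole-number counts per gene symbol as deposited, 1 column per library. The submitters' processing notes name Trim Galore, Bowtie2, Cufflinks, DESeq and mm10; their versions and roles, the annotation and any filter are not given in the sources used here. No molecular identifiers are stated, so PCR copies may be counted.

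Counts were analysed in R 4.3.3 with edgeR 4.0.16: filterByExpr by group, TMM scaling, robust quasi-likelihood test of muscle against epithelium, two-sided, Benjamini-Hochberg adjustment over 19375 genes, threshold 0.05. The SE comes from the test statistic. CPM uses TMM-scaled library sizes. The code was tested on simulated data. Samples were grouped by title, and all value columns were used. The 10 genes and the lists were chosen with earlier results of these data known, so no list was tested as a set. Named were the 10 genes, up to 3 called genes per direction in each related list (average log2 CPM of at least 2), the 5 genes most like Eln, contractile genes and, by the same rule, marker genes that stand beside a result. Alternatives were other scaling, filters and tests (limma 3.58.1, DESeq2 1.42.0), a replicate block, a background covariate, the header number read as a date, and leaving out each library.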

Additional observations from a re-analysis of the deposited data

How the results depend on the processing

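No log2 fold change of the 10 elastic fibre genes changed sign in any of the 16 alternative fits. The number called higher in muscle was 9, and 8 with library size only, 6 at an adjusted p under 0.01 and 6 to 8 without one library; none was called higher in epithelium. With the replicate block all 9 were called, and 19 of the related genes in place of 21. Of the related genes, limma-voom called 30 higher in muscle, an adjusted p under 0.01 left 16, and 16 to 28 were called without one library. The labels give the replicate numbers no further meaning, and deviations from the group means correlated at 0.59, 0.73 and -0.57 over the 3 numbers. With library size only the median log2 fold change of all genes was -0.33 in place of -0.10, that of the 10 genes 2.56 in place of 2.88, and 42.0% of all calls were higher in muscle in place of 61.5%; DESeq2 size factors gave 55.8%. Without muscle replicate 3 the share was 50.3% and without epithelium replicate 3 it was 48.8%.

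Of all genes tested, 1274 were called in the direction of muscle and 797 in that of epithelium. The Wald test of DESeq2 gave 1956 and 1593, the header number as a term 2054 in muscle, the background covariate 1219 in epithelium, library size only 1439 in epithelium, and an adjusted p under 0.01 gave 579 and 404. Without one library the counts ran from 570 to 1655 in muscle and from 514 to 918 in epithelium. In the related lists, 2 genes in place of 1 were higher in epithelium with limma-voom, and 1 to 2 without one library. The cause of these shifts was not tested. An exact permutation test of 3 against 3 libraries cannot give a two-sided p under 0.10. Counts of the 10 genes ranged from 537 to 83340, so none was near 0. As PCR copies may be counted, these counts do not give the error from sampling molecules, which was not measured.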
